A study of Mus musculus with 20 samples.

Results

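R-spondins are secreted proteins that raise the response of a cell to Wnt ligands. They bind the receptors Lgr4, Lgr5 and Lgr6, and the complex removes the ubiquitin ligases Znrf3 and Rnf43 from the membrane, which otherwise send the Frizzled receptors of Wnt for degradation. Axin2, a scaffold of the complex that destroys beta-catenin, is itself transcribed in response to beta-catenin and is widely used as a read-out of the pathway. In the adult brain, R-spondins are made by restricted groups of neurons and by other cells, and Lgr4 is found broadly.

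Described here are 9 of the 25239 genes counted in the preoptic area (POA) of male mice: the ligands *Rspo1*, *Rspo2* and *Rspo3*, the receptors *Lgr4*, *Lgr5* and *Lgr6*, the ligases *Znrf3* and *Rnf43*, and *Axin2*. All 9 had rows in the table, and all 9 passed the filter on low counts in every comparison. They were chosen by the genotype difference of *Rspo2* in these same mice, which was known to be higher in dnFGFR mice, so the genotype differences of the 9 genes are given as a description, without a test. The dnFGFR mice carried a transgene for a truncated FGFR1 without its kinase domain, driven in gonadotropin-releasing hormone (GnRH) neurons by a rat GnRH promoter, and came from homozygous breeding pairs. Control mice of the matching background came from matings of heterozygous dnFGFR siblings. Each male was paired at postnatal day 20 with a partner of its own sex (SS) or of the opposite sex (OS), and tissue was taken at postnatal day 320. The OS pairs were left to breed and raised pups, which were removed at weaning. Genotype and housing together made 4 groups of 5 mice, named control SS, dnFGFR SS, control OS and dnFGFR OS, with 1 library of RNA per mouse.

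Each library held 32353578 to 39871353 counted reads, so that 1 CPM, the count scaled to 1000000 reads of a library, stood for 32.8 to 40.3 reads. The library of dnFGFR OS replicate 5 stood apart, with 18416 genes detected against 19101 to 19659 in the other mice. The paper describes the removal of outlier samples, whereas all 20 mice were kept here. No day of sacrifice held mice of both genotypes, so genotype and day cannot be told apart. *Fgfr1*, whose sequence the transgene shares in part, was at 81.6 to 102 CPM in dnFGFR mice and 86.6 to 99.3 CPM in controls. The transgene is meant for few cells, so the level of *Fgfr1* in whole tissue does not check the genotype labels. *Gnrh1*, the transcript for GnRH, was at 2.01 ± 0.39 CPM in controls (SD, n = 10) and 1.34 ± 0.31 CPM in dnFGFR mice (SD, n = 10). Markers of preoptic and hypothalamic neurons were present in every mouse, and the sum of the 8 genes ranged from 53.9 to 137 CPM.

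*Rspo2* was the member that separated the genotypes. The gene lies at chr15:43020788-43171594 on the minus strand (GRCm38), and no other RefSeq gene overlaps it. In control SS mice it was at 5.56, 5.80, 4.19, 1.64 and 7.93 CPM. In control OS mice it was at 5.41, 3.85, 4.83, 4.91 and 7.61 CPM. All 10 control mice thus lay under 8 CPM, and control SS replicate 4 was the lowest. In dnFGFR SS mice it was at 25.0, 18.4, 23.3, 25.4 and 20.5 CPM. In dnFGFR OS mice it was at 22.2, 20.6, 22.2, 21.7 and 23.2 CPM. The lowest dnFGFR mouse was 2.32 times the highest control mouse, and the genotypes did not overlap. These levels rested on 66 to 311 reads per control mouse and 677 to 862 reads per dnFGFR mouse.

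**Figure D1:**
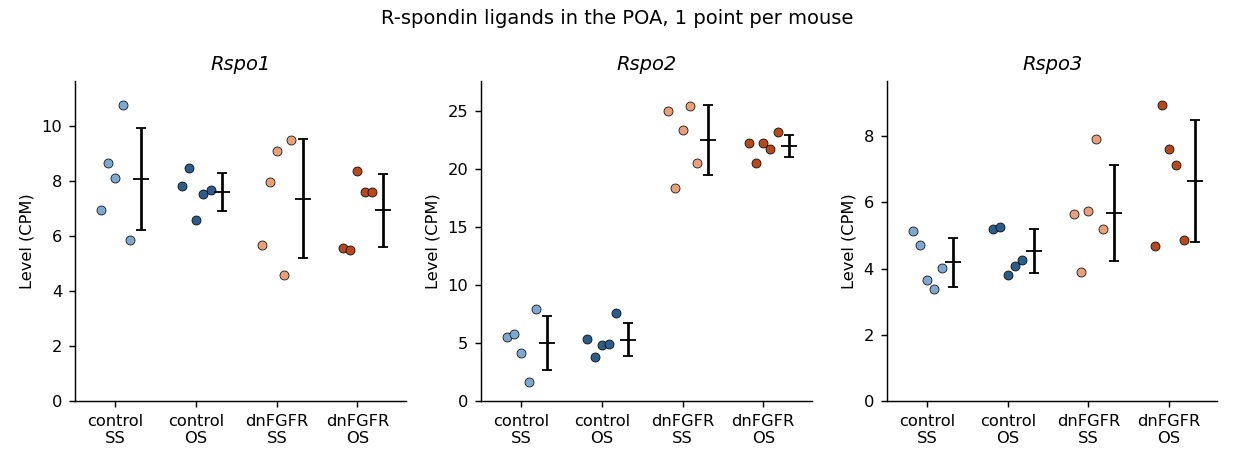
Level of the R-spondins *Rspo1*, *Rspo2* and *Rspo3* in the POA in CPM (y axis) by group (x axis), with 1 point per mouse and the mean ± SD of 5 mice beside each group. *Rspo2* lies between 18.4 and 25.4 CPM in the 10 dnFGFR mice and between 1.64 and 7.93 CPM in the 10 control mice, while the groups overlap for *Rspo1* and *Rspo3*.

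The mean of *Rspo2* was 5.02 ± 2.32 CPM in control SS mice and 22.5 ± 3.02 CPM in dnFGFR SS mice (SD, n = 5 each), a ratio of 4.48. With OS housing the means were 5.32 ± 1.40 and 21.97 ± 0.96 CPM (SD, n = 5 each), a ratio of 4.13. The fitted log2 fold change was 2.17 (SE 0.27, 95% interval 1.60 to 2.73) in SS mice and 2.05 (SE 0.15, 95% interval 1.72 to 2.37) in OS mice. Ordered by mean level, dnFGFR SS and dnFGFR OS mice stood above control OS and control SS mice, and neither pair of groups of the same genotype differed beyond its spread. Relative to its level, *Rspo2* spread more among controls than among dnFGFR mice. The highest mouse was 4.84 times the lowest in controls and 1.38 times the lowest in dnFGFR mice. In CPM the SD over 10 mice was 1.81 in controls and 2.13 in dnFGFR mice. The lowest control mouse, control SS replicate 4, was at 1.64 CPM, and the next lowest at 3.85 CPM. Fewer cells that make a transcript and less transcript per cell cannot be told apart in whole tissue.

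The other ligands moved less between genotypes. *Rspo1*, which partly overlaps the non-coding gene *Gm12930* on the other strand, was at 7.85 ± 1.34 CPM in controls and 7.15 ± 1.70 CPM in dnFGFR mice (SD, n = 10 each). Its log2 fold change was -0.13 in both housings (SE 0.20 in SS and 0.14 in OS mice). *Rspo3* was at 5.14, 4.73, 3.67, 3.38 and 4.03 CPM in control SS mice, and at 5.20, 5.25, 3.80, 4.08 and 4.26 CPM in control OS mice. In dnFGFR SS mice *Rspo3* was at 5.65, 3.90, 5.75, 7.92 and 5.19 CPM, and in dnFGFR OS mice at 4.67, 8.94, 7.62, 7.11 and 4.86 CPM. Of the 10 dnFGFR mice 6 lay above the highest control mouse, and the others lay within the control range. The log2 fold change of *Rspo3* was 0.44 (SE 0.17, 95% interval 0.07 to 0.81) in SS mice and 0.56 (SE 0.19, 95% interval 0.15 to 0.96) in OS mice.

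Per length of exon, the R-spondins of control mice stood in the order *Rspo1* (4.05 ± 0.69 CPM per kb), *Rspo3* (1.41 ± 0.22), *Rspo2* (1.01 ± 0.35) and *Rspo4* (0.459 ± 0.124), all as SD over 10 mice. In dnFGFR mice *Rspo2* reached 4.35 ± 0.42 CPM per kb, beside 3.69 ± 0.88 for *Rspo1*, 1.99 ± 0.53 for *Rspo3* and 0.434 ± 0.201 for *Rspo4* (SD, n = 10). The levels of *Rspo2* and *Rspo1* in dnFGFR mice lay within their spread of each other. *Rspo4*, the fourth R-spondin, is outside the 9 genes and is given to complete the family. *Rspo2* made up 14.4% ± 7.2 of the summed R-spondin level per kb in control SS mice and 41.9% ± 5.4 in dnFGFR SS mice (SD, n = 5 each). With OS housing its share was 15.1% ± 3.5 in controls and 41.5% ± 3.3 in dnFGFR mice (SD, n = 5 each). The summed level of the 4 ligands was 6.95 ± 0.60 and 6.91 ± 0.55 CPM per kb in control SS and OS mice and 10.5 ± 0.86 and 10.4 ± 0.79 CPM per kb in dnFGFR SS and OS mice (SD, n = 5 each).

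Of the receptors, *Lgr4* was the most abundant per length, at 5.12 ± 0.54 CPM per kb over the 20 mice (SD), against 0.402 ± 0.059 for *Lgr5*, a marker of stem cells in several epithelia, and 0.223 ± 0.062 for *Lgr6*. In control SS mice *Lgr4* was at 30.1, 30.3, 30.5, 31.0 and 32.3 CPM, and in dnFGFR SS mice at 30.1, 25.9, 25.3, 27.1 and 25.7 CPM. Only dnFGFR SS replicate 1 reached the control range. The log2 fold change of *Lgr4* was -0.20 (SE 0.06, 95% interval -0.33 to -0.08) in SS mice and -0.12 (SE 0.10, 95% interval -0.32 to 0.09) in OS mice, where the means were 32.7 ± 3.62 CPM in controls and 30.2 ± 2.57 CPM in dnFGFR mice (SD, n = 5 each). *Lgr5*, which overlaps the gene *A930009A15Rik*, was at 3.91 ± 0.47 CPM in controls and 4.33 ± 0.68 CPM in dnFGFR mice (SD, n = 10 each).

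*Lgr6* was the scarcest member, with 17 to 86 reads per mouse. It was at 1.65 ± 0.32 CPM in control SS mice, 1.62 ± 0.25 CPM in control OS mice and 1.73 ± 0.48 CPM in dnFGFR SS mice (SD, n = 5 each). In dnFGFR OS mice it was at 1.17, 0.463, 1.39, 1.51 and 0.977 CPM, with a mean of 1.10 ± 0.41 CPM (SD, n = 5). Those 5 mice overlapped the range of each other group.

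**Figure D2:**
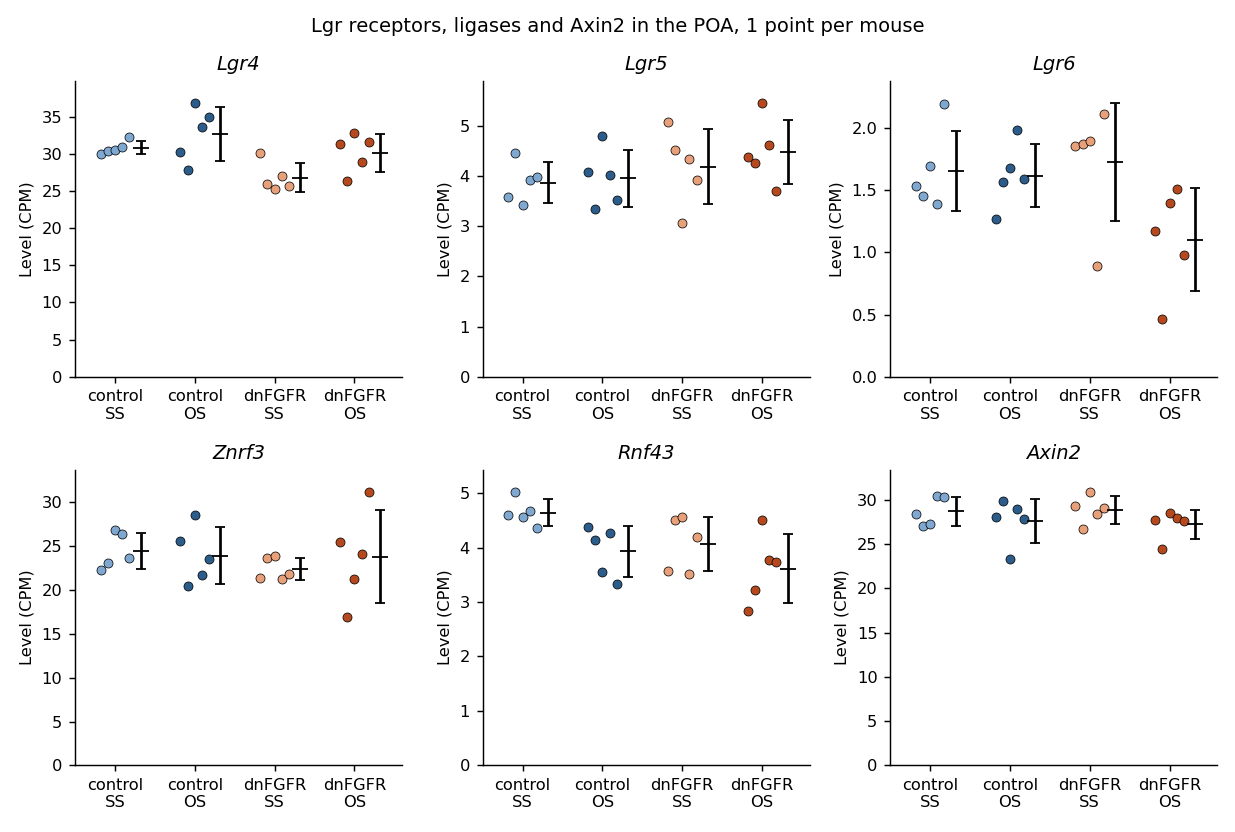
Levels of the receptors *Lgr4*, *Lgr5* and *Lgr6*, the ligases *Znrf3* and *Rnf43* and the target *Axin2* in CPM (y axes, each from 0) by group (x axes), with 1 point per mouse and the mean ± SD of 5 mice beside each group. *Axin2* keeps a mean of 27.2 to 28.9 CPM in the 4 groups, and the genotypes overlap for every gene shown.

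Of the ligases, *Znrf3* was at 2.99 ± 0.40 CPM per kb and *Rnf43* at 0.620 ± 0.089 CPM per kb over the 20 mice (SD). *Znrf3* was at 24.2 ± 2.56 CPM in controls and 23.1 ± 3.69 CPM in dnFGFR mice (SD, n = 10 each), and its log2 fold change was -0.13 (SE 0.07) in SS mice and -0.01 (SE 0.15) in OS mice. *Rnf43* was at 4.29 ± 0.51 CPM in controls and 3.84 ± 0.59 CPM in dnFGFR mice (SD, n = 10 each), with log2 fold changes of -0.19 (SE 0.12) and -0.12 (SE 0.16). *Rnf43* shares part of its locus with *Gm25968* and *1110028F11Rik*, and reads there may be divided between them.

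*Axin2* had nearly the same level in the 4 groups. It was at 28.4, 27.1, 27.2, 30.5 and 30.3 CPM in control SS mice and at 29.3, 26.6, 30.9, 28.3 and 29.1 CPM in dnFGFR SS mice. With OS housing it was at 28.1, 29.8, 23.4, 29.0 and 27.8 CPM in controls and at 27.7, 24.4, 28.5, 27.9 and 27.6 CPM in dnFGFR mice. The ranges overlapped in both housings. Its log2 fold change between genotypes was 0.01 (SE 0.06, 95% interval -0.12 to 0.14) in SS mice and -0.02 (SE 0.08, 95% interval -0.20 to 0.16) in OS mice. The mean over 10 dnFGFR mice was 0.996 of the mean over 10 controls.

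At an adjusted p under 0.1 in the quasi-likelihood test of edgeR, the genotype comparison called 34 of 16992 genes (0.2%) in SS mice and 9 of 16941 genes (0.0531%) in OS mice. *Rspo2* was the 1 member called in each, and nothing is read from that count because the comparison led to its choice. It was also the 1 member whose groups of 5 did not overlap in CPM, which held for 1.57% of genes tested in SS mice and 1.55% in OS mice. Over 10 against 10 mice the genotypes did not overlap for 14 of 17445 genes (0.0803%), *Rspo2* among them and no other member. The median size of the log2 fold change was 0.13 over the 9 members in each housing, beside 0.07 over all genes in SS mice and 0.10 in OS mice. The genotype comparisons in SS and OS mice used separate mice.

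**Figure D3:**
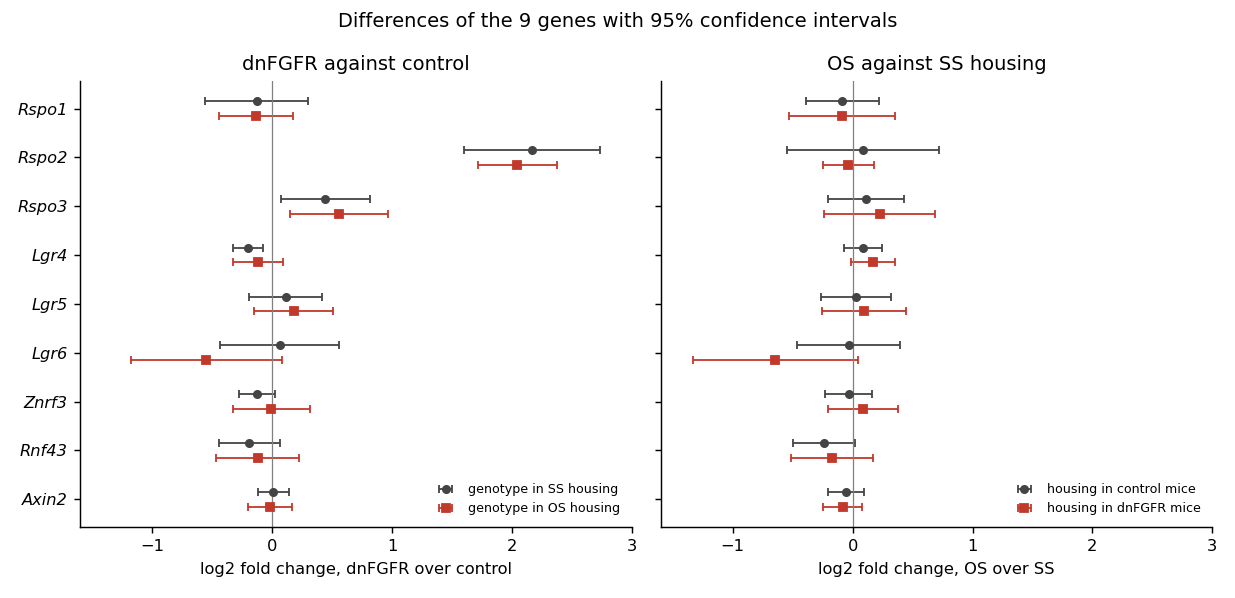
Log2 fold changes (x axes) of the 9 genes (y axis) between genotypes (left panel, dnFGFR over control) and between housings (right panel, OS over SS), as points with 95% confidence intervals from edgeR fits of 5 against 5 mice. The intervals of *Rspo2* between genotypes span 1.60 to 2.73 in SS mice and 1.72 to 2.37 in OS mice, and every interval between housings includes 0.

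The comparison of OS with SS housing asks whether long-term company of a female, with breeding and pups, was accompanied by other transcript levels. It played no part in the choice of the genes. Housing and day of sacrifice were partly tied. Days that held both housings covered 2 control SS and 5 control OS mice, and 2 dnFGFR SS and 4 dnFGFR OS mice. The main fits did not separate housing from day. *Rspo2* did not pass the test for housing in either genotype. Its log2 fold change, OS over SS, was 0.09 in controls (SE 0.30, 95% interval -0.55 to 0.72, edgeR quasi-likelihood adjusted p = 0.974). In dnFGFR mice it was -0.03 (SE 0.10, 95% interval -0.25 to 0.18, edgeR quasi-likelihood adjusted p = 0.951). In linear terms the interval allowed a ratio of 0.685 to 1.64 in controls and 0.843 to 1.13 in dnFGFR mice. The sign of the housing difference of *Rspo2* turned with single mice: without control SS replicate 4 it was -0.14 in controls, and without dnFGFR SS replicate 4 it was 0.01 in dnFGFR mice. The difference of the housing effects, dnFGFR minus control, was -0.12 (SE 0.33, 95% interval -0.81 to 0.57, edgeR quasi-likelihood adjusted p = 0.977).

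No other member passed the test for housing. Of the 9 genes 0 were called in controls by edgeR, which called 21 of 17004 genes (0.124%), and 0 were called by DESeq2, which called 157 genes. An unadjusted p under 0.05 was reached by 0 of the 9 genes in controls and by 1224 of all genes. In dnFGFR mice 0 members were called by edgeR or DESeq2, and edgeR called 0 of 16944 genes (0%), although 1138 had an unadjusted p under 0.05 and DESeq2 called 5. For the interaction edgeR called 0 of 17445 genes (0%), with 595 at an unadjusted p under 0.05 and 1 called by DESeq2, and no member was called by either tool. The housing groups overlapped for all 9 members in both genotypes, while 1.63% of genes tested did not overlap in controls and 1.42% in dnFGFR mice. The member with the largest housing difference was *Lgr6* in dnFGFR mice, lower with OS housing by a log2 fold change of -0.65 (SE 0.32, 95% interval -1.34 to 0.04, edgeR adjusted p = 0.729). *Rnf43* was lower in control OS than in control SS mice, at 3.93 ± 0.47 against 4.64 ± 0.24 CPM (SD, n = 5 each), and the log2 fold change was -0.24 (SE 0.12, edgeR adjusted p = 0.711). *Axin2* had log2 fold changes of -0.06 (SE 0.07, edgeR adjusted p = 0.920) in controls and -0.08 (SE 0.07, edgeR adjusted p = 0.837) in dnFGFR mice.

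Whether *Axin2* followed *Rspo2* from mouse to mouse was examined within each genotype. Over the 10 control mice Pearson's r between their log2 CPM values was -0.22 (permutation p = 0.520, adjusted p = 0.520) and Spearman's rho was -0.18 (permutation p = 0.633, adjusted p = 0.633). Over the 10 dnFGFR mice r was 0.51 (permutation p = 0.139, adjusted p = 0.279) and rho was 0.52 (permutation p = 0.133, adjusted p = 0.266). The 2 genotypes formed the family of tests, which were two-sided. Without the 2 mice farthest from the median of *Rspo2*, r was -0.07 in controls and 0.54 in dnFGFR mice (n = 8 each). A relation was therefore not shown in either genotype.

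Beyond the 9 genes, 82 other genes of the Wnt pathway were listed by role, and 76 of them were tested in each comparison of 5 against 5 mice. Between genotypes in SS mice 0 rose and 1 fell, which was *Ccnd1*, the cell-cycle gene for cyclin D1 and a commonly cited target of beta-catenin. *Ccnd1* was at 38.1 to 47.0 CPM in control SS mice (mean 42.0 ± 3.83, SD, n = 5) and at 25.9 to 30.4 CPM in dnFGFR SS mice (mean 28.2 ± 1.76, SD, n = 5). Every dnFGFR SS mouse was below every control SS mouse. Its log2 fold change was -0.57 (SE 0.07, edgeR quasi-likelihood adjusted p = 0.00342). In OS mice *Ccnd1* was at 39.8 ± 5.02 CPM in controls and 29.6 ± 2.07 CPM in dnFGFR mice (SD, n = 5 each). The log2 fold change of -0.42 (SE 0.10) did not pass (edgeR adjusted p = 0.330) but passed with DESeq2 (adjusted p = 0.0278). It also passed in edgeR with all 4 groups in 1 fit (-0.42, edgeR adjusted p = 0.0364). The housing by genotype interaction of *Ccnd1* was 0.15 (SE 0.12, edgeR adjusted p = 0.963), so a difference between the housings was not shown.

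The remaining roles of the wider list had 0 calls between genotypes by edgeR. In SS mice these covered 18 tested genes for Wnt ligands and their secretion, 17 receptors and co-receptors, 14 secreted and membrane inhibitors, 12 genes of the cytoplasmic relay and 8 nuclear factors. The median log2 fold change over the 76 genes was -0.02 in SS and 0.01 in OS mice, beside 0.00 over all genes in both, and the median size was 0.10 and 0.14, beside 0.07 and 0.10 over all genes. An unadjusted p under 0.05 was reached by 9 of the 76 genes (11.8%) in SS mice, against 8.63% of all genes tested, and by 7 (9.21%) in OS mice, against 7.02%. Next to *Ccnd1* in OS mice stood *Nkd1*, an inhibitor of Wnt signaling that is itself induced by it, with 14.7 ± 1.16 CPM in controls and 12.1 ± 1.06 CPM in dnFGFR mice (SD, n = 5 each, edgeR adjusted p = 0.643). With DESeq2, 2 genes of the list were called in SS mice (*Ccnd1* and *Fzd5*) and 1 in OS mice (*Ccnd1*), where DESeq2 called 223 and 78 genes of the whole table.

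Between housings edgeR called 0 of the 76 genes in controls, where 9 (11.8%) had an unadjusted p under 0.05, against 7.20% of all genes tested. The Wnt receptors *Fzd5* and *Fzd7* had the smallest p in controls, with log2 fold changes of -0.41 (SE 0.11, edgeR adjusted p = 0.309) and 0.41 (SE 0.11, edgeR adjusted p = 0.313). DESeq2 called both, with adjusted p of 0.0766 and 0.0843. In dnFGFR mice 0 genes were called by either tool and 8 (10.5%) had an unadjusted p under 0.05, against 6.72% of all genes tested, led by the ligand *Wnt11* (0.354 ± 0.059 CPM with SS housing against 0.753 ± 0.323 CPM with OS housing, SD over 5 mice, edgeR adjusted p = 0.726) and the beta-catenin co-factor *Bcl9l* (70.0 ± 4.58 against 55.4 ± 9.27 CPM, edgeR adjusted p = 0.726). The interaction had 0 calls among 77 genes by either tool, with 2 (2.60%, against 3.41% of all genes tested) at an unadjusted p under 0.05, *Gsk3a* at -0.30 (SE 0.13) and *Apcdd1* at 0.35 (SE 0.15), both at an edgeR adjusted p of 0.963.

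Markers of other brain regions were examined because a dissection of the POA can hold neighbouring tissue. The summed CPM of 5 markers of cortical and amygdalar excitatory neurons (*Slc17a7*, *Neurod2*, *Neurod6*, *Tbr1* and *Emx1*) moved with *Rspo2* in control mice. The sum was 372 ± 135 in controls (148.7 to 579.1) and 536 ± 147 in dnFGFR mice (294 to 777.7) (SD, n = 10 each), and the genotypes overlapped. The control mouse with the least *Rspo2*, control SS replicate 4, had the lowest sum, 148.7. As a description, r between *Rspo2* and this sum on the log2 scale was 0.87 over the 10 controls and 0.35 over the 10 dnFGFR mice, where points share no library but share their group. All 5 markers were detected in every mouse.

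**Figure D4:**
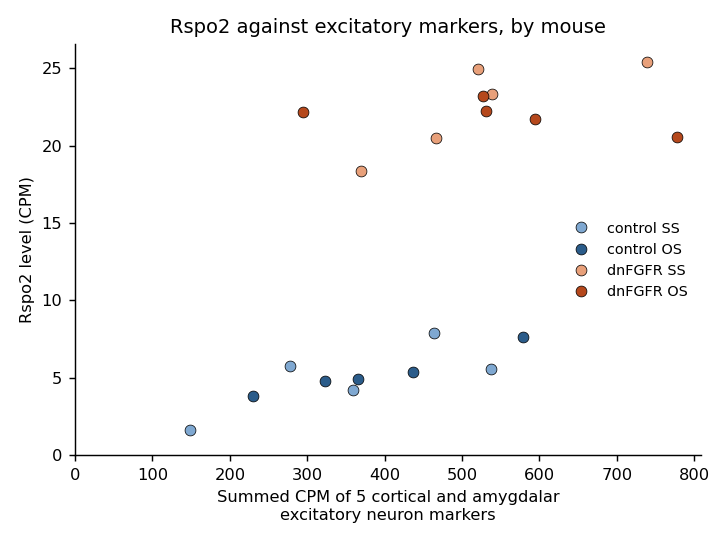
Level of *Rspo2* in CPM (y axis) against the summed CPM of 5 markers of cortical and amygdalar excitatory neurons (x axis), with 1 point per mouse, coloured by group. At marker sums shared by both genotypes (294 to 579.1 CPM) the dnFGFR mice lie above 18 CPM of *Rspo2* and the control mice below 8 CPM.

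Per 100 CPM of these markers, *Rspo2* was at 1.42 ± 0.33 CPM in controls (1.04 to 2.08) and 4.44 ± 1.29 CPM in dnFGFR mice (2.64 to 7.55) (SD, n = 10 each), without overlap. With the marker sum as a covariate, a setting chosen after the data were seen, the log2 fold change of *Rspo2* was 1.71 in SS and 1.93 in OS mice. The same covariate took that of *Rspo3* to 0.18 in SS and 0.39 in OS mice. *Rspo2* was chosen by its genotype difference, so these values are a description only. The part of excitatory tissue in that difference was not tested. The other 6 lists (preoptic neurons, striatal neurons, choroid plexus, meningeal fibroblasts, endothelium and oligodendrocyte lineage) also overlapped between genotypes over 10 against 10 mice. In OS mice alone the striatal sums did not overlap, at 2389 to 2922 CPM in controls and 1548 to 2362 CPM in dnFGFR mice. Over the 10 controls, r of these 6 sums with *Rspo2* on the log2 scale ran from -0.51 (preoptic neurons) to -0.25 (oligodendrocyte lineage). Striatal markers summed to 1548 to 3093 CPM and choroid plexus markers to 37.5 to 2181 CPM over the 20 mice, and their part in the levels of the members was not tested.

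The genes beside *Rspo2* on chromosome 15 were examined for their own genotype differences. The 3 nearest genes that passed the filter on the low-coordinate side were *Angpt1*, *Oxr1* and *Zfpm2*, at 343.8, 1160 and 1916 kb, and on the high-coordinate side *Eif3e*, *Emc2* and *Tmem74*, at 78.5, 305.6 and 691.8 kb. *Tmem74*, a transmembrane protein gene, was the 1 neighbour called. It rose in SS mice from 4.23 ± 0.36 CPM in controls to 7.28 ± 1.41 CPM in dnFGFR mice (SD, n = 5 each), and the log2 fold change was 0.78 (SE 0.13, edgeR adjusted p = 0.0381). The call was kept by DESeq2 (adjusted p = 6.62e-05) but lost without dnFGFR SS replicate 1 (log2 fold change 0.71, adjusted p = 0.115), with all 4 groups in 1 fit (0.78, adjusted p = 0.205) and with the excitatory markers as a covariate (0.67, adjusted p = 0.200). In OS mice *Tmem74* was at 4.22 ± 1.06 CPM in controls and 6.94 ± 2.02 CPM in dnFGFR mice (SD, n = 5 each), and the log2 fold change was 0.72 (SE 0.23, edgeR adjusted p = 0.614).

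**Figure D5:**
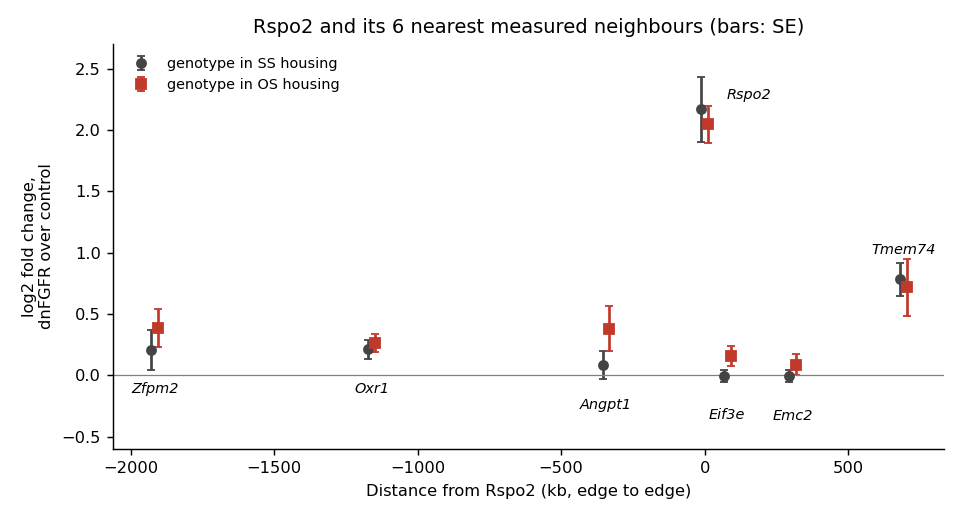
Log2 fold change between genotypes (y axis, dnFGFR over control, bars are SE) of *Rspo2* and its 6 nearest measured neighbours against their distance from *Rspo2* in kb (x axis, edge to edge, points of the housings set slightly apart). *Rspo2* lies at 2.17 and 2.05, *Tmem74* at 0.78 and 0.72, and the other neighbours between -0.01 and 0.39.

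The closest neighbour, *Eif3e*, a subunit of translation initiation factor eIF3, had log2 fold changes of 0.00 (SE 0.05) in SS and 0.16 (SE 0.08) in OS mice. Those of *Emc2*, a subunit of the membrane protein complex of the endoplasmic reticulum, were -0.01 (SE 0.05) and 0.09 (SE 0.09). *Angpt1*, the ligand angiopoietin 1, had 0.08 (SE 0.11) and 0.38 (SE 0.18). *Oxr1*, which protects against oxidative stress, had 0.21 (SE 0.08, unadjusted p = 0.0166) and 0.27 (SE 0.07, unadjusted p = 0.00300), and *Zfpm2*, a co-factor of GATA transcription factors, had 0.21 (SE 0.16, unadjusted p = 0.220) and 0.39 (SE 0.15, unadjusted p = 0.0262). None of these 5 neighbours passed the edgeR test in either housing, where their adjusted p was 0.437 or more. *Rspo2* aside, *Tmem74* in SS mice was the 1 gene of chromosome 15 that edgeR called between genotypes.

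The genes whose levels were most like *Rspo2* over the 20 mice were ranked by Pearson's r of log2 CPM among 17444 genes, as a description. The 5 highest were *4933404O12Rik* (r = 0.86), *Ints7* (0.86), *Eps8l1* (0.85), *Chrnb3* (0.83) and *Garnl3* (0.81), and none of them is on chromosome 15. The 3 lowest were *Fgl1* (-0.91), *Gm9732* (-0.91) and *Ngfr*, a neurotrophin receptor (-0.88). These values mostly follow the genotypes, since the mice fall into separate ranges of *Rspo2*. *Fgl1* and *Gm9732* rested on few reads, with group means of 0 to 0.363 CPM and 0 to 0.896 CPM. *Ints7*, a subunit of the Integrator complex, was at 33.6 and 34.7 CPM in control SS and OS mice and at 47.4 and 48.6 CPM in dnFGFR SS and OS mice. *Eps8l1*, related to the actin regulator Eps8, was at 1.83 and 1.62 CPM in control SS and OS mice and at 13.1 and 18.8 CPM in dnFGFR SS and OS mice. Among the members, *Rspo3* had r = 0.65 with *Rspo2* and the others had r from -0.44 (*Rnf43*) to 0.33 (*Lgr5*).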

How the data were processed

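RNA of the POA from 20 male mice was sequenced, and the authors aligned reads to GRCm38 with HISAT2 and deposited whole-number counts per gene, made with Rsubread on RefSeq genes. Strand and multi-mapping options are not given in the sources used here. The table holds 20 further columns of per-sample values outside these mice, which were not used. Groups come from the labels. Each library came from 1 mouse, so p-values measure the spread between mice.

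Counts as deposited were tested in R 4.3.3 with edgeR 4.0.16 (TMM scaling, filterByExpr, quasi-likelihood test, Benjamini-Hochberg adjustment over all genes tested, called at an adjusted p under 0.1). Each comparison of 5 against 5 mice was fitted on its own, and the interaction on all 20. The SE was derived from the F statistic. CPM used TMM library sizes, and CPM per kb used exonic lengths of GENCODE M21. Correlations used log2 CPM with a prior count of 2 and 1e+05 permutations. Alternatives were DESeq2 1.42.0, RLE size factors, no filter, all 4 groups in 1 fit, the replicate number as a block, an adjusted p under 0.05, dates of sacrifice that held both housings (7 control and 6 dnFGFR mice) and leaving out each mouse. The tests were checked on simulated data. The 9 members, the wider list, the marker lists and the rules for naming genes (of the wider list those called, otherwise the 2 of smallest p per comparison, and for likeness the 5 highest and 3 lowest) were chosen with earlier results of these data known. 1 excitatory marker of the list is not reported here and enters no sum. Replicates of a group differed beyond counting noise, so none was counted as a copy.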

Additional observations from a re-analysis of the deposited data

Results flagged for a closer look

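Of 36 groups of 5 mice looked at for the 9 genes, 2 held a mouse far from the others, and chance alone gives about 1 in 20. *Axin2* was at 24.4 CPM in dnFGFR OS replicate 2, below the next mouse of that group at 27.6 CPM, while the highest was at 28.5 CPM, so the gap was 0.772 of the range. The same mouse had the highest sum of excitatory neuron markers, 777.7 CPM. *Lgr6* was at 0.893 CPM in dnFGFR SS replicate 4, below the next mouse at 1.86 CPM, with the highest at 2.11 CPM, so the gap was 0.791 of the range. The part of tissue composition in either value was not tested.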

How the results depend on the processing

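*Rspo2* kept its direction between genotypes under every setting run. Leaving out 1 mouse at a time gave log2 fold changes of 1.94 to 2.40 in SS and 1.95 to 2.21 in OS mice, dnFGFR OS replicate 5 included. *Rspo2* was chosen by this difference and its genotypes did not overlap. Its direction was thus all but fixed in advance, and these values are a description only. Of 303 values under planned settings other than leaving out a mouse, 294 kept direction and call and 6 reversed. Of 580 values without 1 mouse, 534 kept both and 45 reversed. The cause of these changes was not tested. The setting of an adjusted p under 0.05 reused the main fit, so its values could not reverse. For *Rspo2* between genotypes a value was counted as kept if it moved by less than the SD within groups. No day of sacrifice held both genotypes, and *Lgr6*, with 17 to 86 reads, is limited by depth.

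Counts of genes called over the whole table changed most. With DESeq2 they were 223 and 78 between genotypes in SS and OS mice, 157 and 5 between housings in control and dnFGFR mice, and 1 for the interaction. With all 4 groups in 1 fit 45 were called between genotypes in OS mice and 0 between housings in controls. At an adjusted p under 0.05 these were 5 and 6. On dates with both housings 1 was called in controls. With the excitatory markers as a covariate 21 and 5 were called between genotypes in SS and OS mice. Without 1 mouse the counts were 21 to 70 and 3 to 16 between genotypes in SS and OS mice and 0 to 32 between housings in controls. Genes at an unadjusted edgeR p under 0.05 changed most without dnFGFR OS replicate 2. Between housings in dnFGFR mice they were then 2860, against 1138 with all mice. Between genotypes in OS mice they were 2299, against 1190 with all mice.

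Same-numbered mice had correlations of -0.23 to 0.26, over 0.1 in 4 of 20 pairs, so mice share only a number. With the replicate block 3 genes were called between genotypes in OS mice in place of 9, and no call of a member changed.

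Under settings other than leaving out a mouse, the reversed log2 fold changes were as follows. On dates with both housings they were -0.00714 for *Lgr5*, 0.0585 for *Lgr6* and 0.0268 for *Axin2* in controls. In dnFGFR mice *Lgr5* was at -0.104 on such dates, against 0.0984 in the main fit. The interaction of *Rspo1* was 0.00507 with DESeq2 and 0.00482 with RLE. With the marker covariate *Rspo1* was 0.202 between genotypes in SS mice, against -0.131 in the main fit. The same covariate gave 0.0440 for *Znrf3* and 0.0101 for *Axin2* in OS mice.

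Without 1 mouse the ranges that crossed 0 were as follows. Between genotypes in SS mice *Axin2* ran from -0.0203 to 0.0355 and *Lgr6* from -0.0218 to 0.225, and in OS mice *Axin2* from -0.0728 to 0.0188 and *Znrf3* from -0.129 to 0.0943. Between housings in controls *Rspo1* ran from -0.184 to 0.0424, *Rspo2* from -0.142 to 0.314, *Lgr5* from -0.0518 to 0.0860, *Lgr6* from -0.117 to 0.0904 and *Znrf3* from -0.105 to 0.0215. Between housings in dnFGFR mice *Rspo1* ran from -0.218 to 0.0198, *Rspo2* from -0.0998 to 0.0117 and *Znrf3* from -0.0295 to 0.193. For the interaction *Rspo1* ran from -0.128 to 0.110, *Rspo2* from -0.347 to 0.113, *Rspo3* from -0.00147 to 0.269, *Lgr5* from -0.0104 to 0.157, *Rnf43* from -0.0127 to 0.156 and *Axin2* from -0.0767 to 0.0218. The correlation of *Rspo2* with *Axin2* in controls ran from -0.42 to 0.19.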

Other observations

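With the mean of each group removed, the genes most like *Rspo2* over the 20 mice were *Myh1* (r = 0.89), *Chrna5*, a nicotinic receptor subunit (0.87), *Neurod6*, a transcription factor of cortical excitatory neurons (0.83), *Gm765* (0.83) and *Cplx3*, a complexin of synaptic release (0.82). The 3 lowest were *Clcc1* (-0.75), *Gm28729* (-0.74) and *Rasa4* (-0.73). *Neurod6* is also 1 of the 5 excitatory markers above. *Gm765* and *Myh1* rested on few reads, with group means of 0.315 to 0.362 CPM and 0.601 to 0.880 CPM. Without dnFGFR OS replicate 5, 4 of the 5 highest genes stayed, with *Ccn2* (0.86) in place of *Neurod6*, and the 3 lowest were *Hspb8*, *Entpd2* and *Smo*. Of the members, *Rspo1* had r = -0.51 with *Rspo2* after the group means were removed, and *Rspo3* had 0.27.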
